A study of Homo sapiens with 24 samples.

Results

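The cytosolic and mitochondrial heat shock genes followed here are 10 named genes, taken by their symbols, among 18632 genes tested. They are the regulator HSF1, the HSP70 genes HSPA1A, HSPA1B and HSPA8, the cochaperones DNAJB1, HSPH1 and BAG3, the small heat shock gene HSPB1 and the mitochondrial pair HSPD1 and HSPE1. All 10 symbols were found in the expression table. The study silenced COPZ1, which encodes the zeta subunit of coatomer I, the coat of vesicles that travel between the Golgi apparatus and the endoplasmic reticulum. Each of 24 arrays measured the total RNA of 1 sample of human cells. The TPC-1 line comes from a papillary thyroid carcinoma, and the Nthy-ori 3-1 line from normal thyroid follicular epithelium, immortalised with SV40. Cells received 20 nM of siCOPZ1 or of siNT by lipid transfection and were collected 72 h or 48 h later, which gave 8 groups of 3 replicates: TPC-1 with siCOPZ1 at 72 h, TPC-1 with siNT at 72 h, the same pair at 48 h, and the same 4 groups in Nthy-ori 3-1. The siCOPZ1 reagent is an esiRNA, a pool of enzymatically cut duplexes, and siNT is a commercial non-targeting control of another kind, so reagent type and silencing cannot be told apart. TPC-1 grew in DMEM and Nthy-ori 3-1 in RPMI medium, so line and medium cannot be told apart either. Each line stands for 1 tumour or 1 normal source, and nothing in the labels says whether replicates came from separate cultures, so p-values measure the spread between these samples, which may be technical.

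Heat shock proteins are chaperones that keep other proteins folded or refold them. In the cytosol and nucleus, unfolded proteins free the transcription factor HSF1, which then binds heat shock elements, repeats of the letters NGAAN in alternating orientation, in front of HSP70, HSP40, HSP110 and small heat shock genes. The endoplasmic reticulum has its own chaperones, led by the HSP70 gene HSPA5, and a separate sensor system, the unfolded protein response, which acts through other promoter letters. Mitochondria refold imported proteins with HSPA9 and with the HSPD1 and HSPE1 chaperonin, and follow damage in their matrix with yet other factors.

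The upstream sequences of the genes that passed the test at 72 h in TPC-1, HSPA1B and HSPB1, are shown with those of the near copy HSPA1A and of HSPA5, because they hold the letters by which both systems are told apart. Sequences are from RefSeq, build GRCh38.p14, and run 5′ to 3′ on the coding strand over the 250 bases before the start of transcription. Capitals mark a heat shock element pair, GAANNTTC or TTCNNGAA, in the first 3 genes, and the endoplasmic reticulum stress element, CCAAT followed after 9 further bases by CCACG, in HSPA5.
HSPA1A, chr6:31815293-31815542, plus strand: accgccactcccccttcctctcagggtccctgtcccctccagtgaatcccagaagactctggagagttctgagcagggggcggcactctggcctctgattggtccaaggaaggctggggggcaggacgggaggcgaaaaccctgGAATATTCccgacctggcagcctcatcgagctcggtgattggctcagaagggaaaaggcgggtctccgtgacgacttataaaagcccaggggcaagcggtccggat
HSPA1B, chr6:31827488-31827737, plus strand: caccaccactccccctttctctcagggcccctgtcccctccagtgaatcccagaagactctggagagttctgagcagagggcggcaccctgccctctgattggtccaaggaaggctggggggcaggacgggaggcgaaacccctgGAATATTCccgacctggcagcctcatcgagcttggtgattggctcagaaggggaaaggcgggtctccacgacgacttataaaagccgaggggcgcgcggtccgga
HSPB1, chr7:76302423-76302672, plus strand: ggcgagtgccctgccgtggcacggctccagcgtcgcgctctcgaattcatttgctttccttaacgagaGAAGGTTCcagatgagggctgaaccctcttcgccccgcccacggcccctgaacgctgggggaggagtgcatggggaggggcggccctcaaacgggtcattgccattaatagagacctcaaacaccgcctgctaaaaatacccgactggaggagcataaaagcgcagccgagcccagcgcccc
HSPA5, chr9:125241344-125241593, minus strand: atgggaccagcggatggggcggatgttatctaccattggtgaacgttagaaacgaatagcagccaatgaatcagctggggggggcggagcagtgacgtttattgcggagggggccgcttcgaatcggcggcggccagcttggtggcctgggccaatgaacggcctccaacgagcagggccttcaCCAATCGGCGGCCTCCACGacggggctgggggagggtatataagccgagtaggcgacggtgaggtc
The capitals begin 106 bases before the start in HSPA1A, 105 in HSPA1B, 182 in HSPB1 and 66 in HSPA5. HSPA1A and HSPA1B shared 235 of 251 aligned columns (93.6%), whereas HSPA1A and HSPB1 shared 52.6%. Windows of 40 bases around the pairs of 3 more genes show runs of elements in HSPA8 and HSPD1.
HSPA8, chr11:123062167-123062206, minus strand: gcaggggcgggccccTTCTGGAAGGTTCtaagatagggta
DNAJB1, chr19:14518425-14518464, minus strand: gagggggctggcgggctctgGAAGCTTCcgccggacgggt
HSPD1, chr2:197500051-197500090, minus strand: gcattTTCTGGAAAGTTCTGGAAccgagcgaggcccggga
An upstream sequence was found for 9 of the 10 genes. The search covered both strands of the 250 bases before the start. A pair stood in 6 of these 9 genes (66.7%), against 14% of 27305 genes with a window. It stood in 15 of 37 other cytosolic chaperone genes, in 3 of 22 chaperone genes of the endoplasmic reticulum and in 0 of 12 other mitochondrial ones. The heat shock genes were picked as HSF1-driven chaperones, so their high share follows in part from that choice. HSPA1A and HSPA1B, nearly the same upstream, are both counted among the 6. The stress element stood in 0 of the 9 genes, in 7 of the 22 genes of the endoplasmic reticulum (31.8%) and in 0.0916% of all genes. HSPD1 and HSPE1 lie head to head. In windows of 300 bases, of which 50 lie after the start, 1 start site of HSPD1 overlapped HSPE1 by 204 bases. The window of the other start site overlapped it by 0 bases. The HSPD1 elements printed above lie in that other window, and the overlapping one held no pair. A match describes letters in a window and shows no binding.

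COPZ1 itself separated the siRNA groups in every line and time. Its log2 level was 8.48, 9.23 and 9.14 in TPC-1 with siCOPZ1 at 72 h, against 11.07, 11.15 and 11.15 with siNT, a difference of -2.17. The difference was -3.25 in TPC-1 at 48 h, -1.57 in Nthy-ori 3-1 at 72 h and -1.96 in Nthy-ori 3-1 at 48 h. PAX8, a thyroid transcription factor, was bright in both lines, while TSHR and SLC5A5, the thyrotropin receptor and the iodide transporter of mature thyrocytes, were dim, at percentiles 20.0 to 22.0 of all genes. The mean log2 level of 4 fibroblast markers was 5.03 to 5.61 in TPC-1 samples and 6.63 to 7.04 in Nthy-ori 3-1 samples. Of these, COL1A1 had 6.06 in TPC-1 and 11.14 in Nthy-ori 3-1 and PDGFRB had 7.27 in TPC-1 and 8.63 in Nthy-ori 3-1, while COL3A1 (4.67 in TPC-1, 4.44 in Nthy-ori 3-1) and DCN (3.30 in TPC-1, 3.25 in Nthy-ori 3-1) were dim in both. The part of these markers in the line differences was not tested. The immune marker PTPRC was near the bottom of the range in both lines. Arrays of a group correlated at 0.971 to 0.989. An array does not give a depth, and the 3 arrays in each group limit the precision.

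A gene is called changed here when its adjusted p, from 1 limma fit over all 24 arrays with Benjamini-Hochberg adjustment over the 18632 genes of a comparison, lies under 0.05. Differences are log2 values, given with their standard error. Array brightness differs between probes, so levels are compared between samples and not between genes. HSPA1A and HSPA1B encode nearly the same protein, and which probes define each is not stated, so the values of either gene may include signal of the other.

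At 72 h in TPC-1, siCOPZ1 left most of these heat shock genes without a call. HSPB1 fell, HSPA1B rose and the other 8 did not pass the test, including HSF1, HSPA8 and DNAJB1, whose differences lay close to 0. The 2 calls of 10 stand against a background of 14.4% of all genes called in this comparison, with 7.03% higher and 7.42% lower, so a count of 1 in each direction is near the background. The median difference of the 10 genes was 0.23, against -0.005 over all genes. At an unadjusted p under 0.05, 3 of the 10 passed, against 26.2% of all genes, and the groups of the same 3 did not overlap, against 28.9%.

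**Figure D1:**
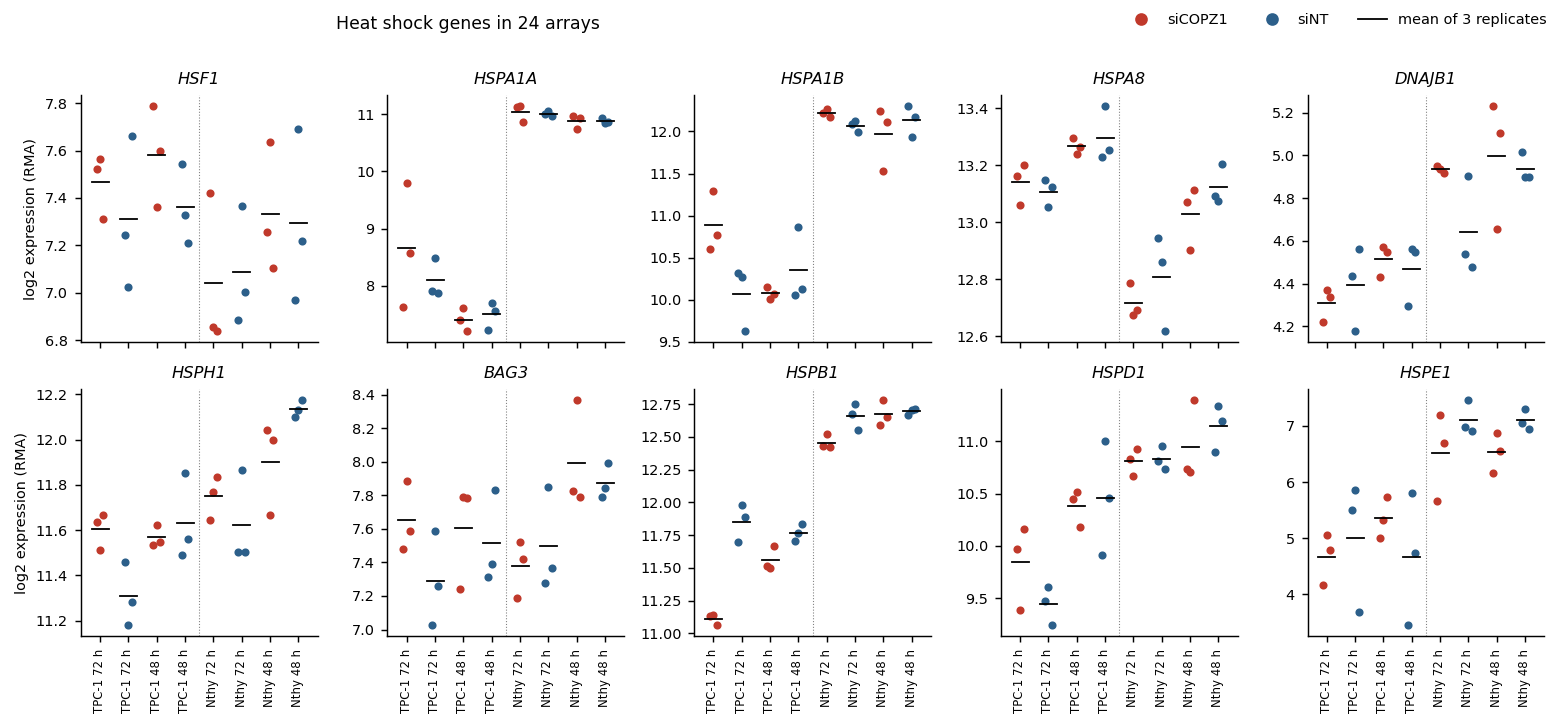
Log2 expression of the 10 heat shock genes in each of the 24 samples (points; y axis, RMA log2 units, scaled separately for each gene), with siCOPZ1 in red and siNT in blue and a black line at the mean of 3 replicates. In HSPB1 the 3 red points of TPC-1 at 72 h lie at 11.07 to 11.14, below all other samples.

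HSPB1, the small heat shock protein also called HSP27, binds unfolding proteins without using ATP and associates with actin filaments. Its log2 levels in TPC-1 at 72 h were 11.13, 11.14 and 11.07 with siCOPZ1, against 11.70, 11.98 and 11.89 with siNT. The groups were far apart: HSPB1 was 1.67-fold lower, at 59.9% of its siNT level, a difference of -0.74 ± 0.10 (SE, n = 3 each; limma adjusted p = 3.95e-05). At 48 h in TPC-1 the levels were 11.52, 11.50 and 11.67 with siCOPZ1, against 11.71, 11.77 and 11.84 with siNT. Here too all siCOPZ1 samples lay below all siNT samples, but the difference of -0.21 ± 0.10 did not pass (adjusted p = 0.557). In Nthy-ori 3-1 at 72 h the levels were 12.43, 12.52 and 12.42 with siCOPZ1, against 12.67, 12.75 and 12.56 with siNT. The groups did not overlap, and the difference of -0.20 ± 0.10 was not called (adjusted p = 1.00). At 48 h in Nthy-ori 3-1 the groups overlapped, with 12.59, 12.78 and 12.65 for siCOPZ1, against 12.66, 12.71 and 12.72 for siNT. The fall at 72 h in TPC-1 was called under all 15 alternative settings.

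The HSP70 genes differed among themselves. HSPA1B, the stress-inducible HSP70, had log2 levels of 10.60, 11.29 and 10.77 with siCOPZ1 in TPC-1 at 72 h, against 10.32, 10.27 and 9.63 with siNT. All siCOPZ1 samples lay above all siNT samples, and the rise was 0.81 ± 0.23, or 1.76-fold (adjusted p = 0.0183). The call was lost without siCOPZ1 replicate 2 (0.61, adjusted p = 0.113) or without siNT replicate 3 (0.59, adjusted p = 0.120), and with the 6 arrays of the comparison alone (adjusted p = 0.106) or the 12 arrays of the line alone (0.0763). Its near copy HSPA1A had 7.63, 9.80 and 8.57 with siCOPZ1, against 7.92, 8.50 and 7.88 with siNT. The groups overlapped, the difference was 0.57 ± 0.32 (adjusted p = 0.277), and replicate 2 of siCOPZ1 stood high and replicate 1 low. The HSPA1A difference ranged from 0.0021 without siCOPZ1 replicate 2 to 1.09 without siCOPZ1 replicate 1, and passed the test in the second case (adjusted p = 0.00746). HSPA8, the constitutive HSP70 that also strips clathrin coats, had 13.16, 13.06 and 13.20 with siCOPZ1, against 13.15, 13.05 and 13.12 with siNT. That difference was 0.03 ± 0.10, with a 95% interval of -0.18 to 0.25.

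The cochaperones and the regulator gave no call at 72 h in TPC-1. HSPH1, an HSP110 that exchanges the nucleotide of HSP70, had 11.64, 11.51 and 11.67 with siCOPZ1, against 11.46, 11.18 and 11.28 with siNT. The groups did not overlap, and the difference of 0.30 ± 0.13 had an adjusted p of 0.145. BAG3, which links HSP70 to selective autophagy, had 7.48, 7.89 and 7.59 with siCOPZ1, against 7.03, 7.59 and 7.26 with siNT, overlapping groups with a difference of 0.36 ± 0.21 (adjusted p = 0.283). DNAJB1, the HSP40 that hands substrates to HSP70, differed by -0.08 ± 0.15. HSF1 had 7.52, 7.57 and 7.31 with siCOPZ1, against 7.24, 7.02 and 7.66 with siNT, and its difference was 0.16 ± 0.21 (adjusted p = 0.707). HSF1 is controlled largely at the level of its protein, which an array does not measure.

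Neither gene of the mitochondrial pair was called. HSPD1, the large chaperonin subunit, had 9.97, 9.39 and 10.17 with siCOPZ1 in TPC-1 at 72 h, against 9.48, 9.61 and 9.25 with siNT. The groups overlapped through siCOPZ1 replicate 2, and the difference was 0.40 ± 0.24 (adjusted p = 0.312). HSPE1, the lid of the same chamber, had 4.16, 5.06 and 4.79 with siCOPZ1, against 5.50, 5.86 and 3.68 with siNT, a difference of -0.34 ± 0.52. HSPE1 was dim on these arrays, at percentile 38.5 of all genes by mean level, and its pooled SD within groups was 0.88 in TPC-1 and 0.46 in Nthy-ori 3-1, against medians of 0.25 and 0.21 over all genes. A change of the size seen for HSPB1 was therefore not detectable for HSPE1. DNAJB1 was dimmer still, at percentile 20.9, and RMA compresses differences of dim genes.

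At 48 h in TPC-1, 0 of the 10 genes were called by limma and 0 passed an unadjusted p under 0.05, against 0.166% of all genes called, 0.134% higher and 0.0322% lower, and 9.04% at the unadjusted threshold. The differences ran from -0.27 for HSPA1B to 0.69 for HSPE1, with a median of -0.05. HSPB1 was the 1 gene of the 10 whose groups did not overlap, which 12.1% of all genes showed. In Nthy-ori 3-1, 0 of the 10 were called at 72 h and 0 at 48 h, and 0 at the unadjusted threshold at either time. The background there was 0.00537% of all genes at both times, and that single gene was COPZ1. The unadjusted threshold took in 3.08% of all genes at 72 h and 4.86% at 48 h. Groups did not overlap for 3 genes at 72 h, where the background was 10.4%. These were HSPB1, HSPA1B (0.15 ± 0.23) and DNAJB1 (0.30 ± 0.15). They did not overlap for 2 genes at 48 h, HSPH1 (-0.23 ± 0.13) and HSPE1 (-0.56 ± 0.52), where the background was 12.6%. The differences ran from -0.59 (HSPE1) to 0.30 (DNAJB1) at 72 h and from -0.56 (HSPE1) to 0.12 (BAG3) at 48 h.

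**Figure D2:**
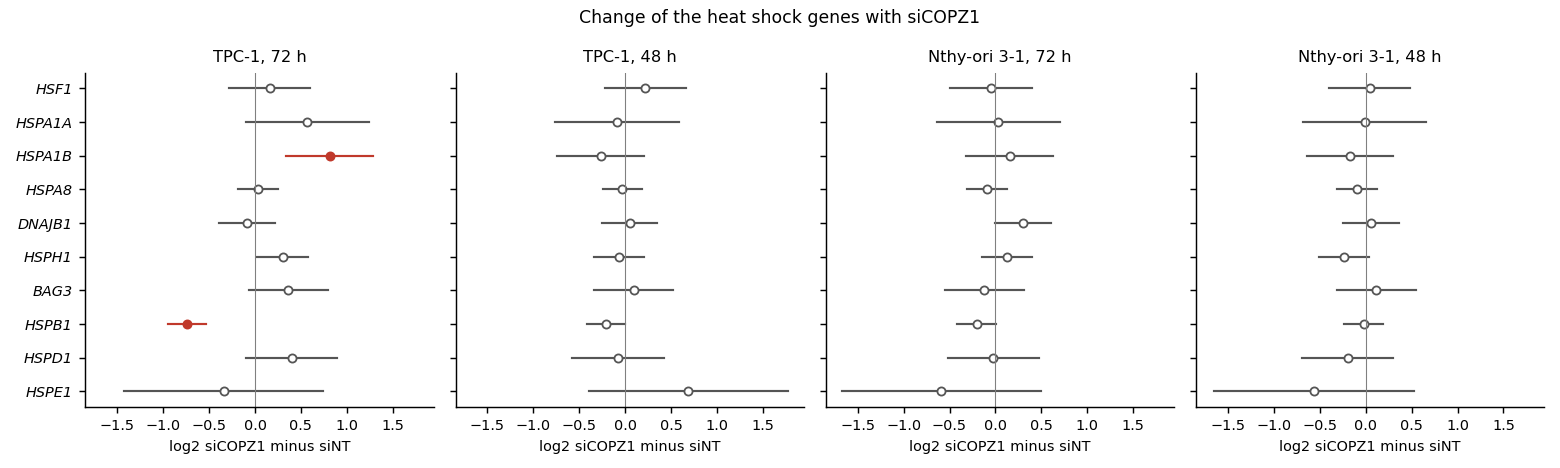
Difference of siCOPZ1 from siNT (x axis, log2) for each heat shock gene in TPC-1 and Nthy-ori 3-1 at 72 h and 48 h, with 95% confidence intervals as bars. Filled red points passed an adjusted p under 0.05 (HSPA1B at 0.81 and HSPB1 at -0.74, both in TPC-1 at 72 h), and open points did not.

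The effect of siCOPZ1 was then compared between the lines and between the times. At 72 h the HSPB1 effect was -0.74 in TPC-1 and -0.20 in Nthy-ori 3-1, and the difference of these effects was -0.54 ± 0.14 (adjusted p = 0.037; 95% interval -0.83 to -0.24). HSPB1 was the 1 call of 10, against 4.02% of all genes, 1.85% higher and 2.17% lower, and the 1 gene of 10 at an unadjusted p under 0.05, against 16.6%. This call held in 2 of 12 fits that left out 1 array and was lost after median centring of the arrays (-0.50, adjusted p = 0.0539), with adjusted p from 0.0053 to 0.121 over all 19 alternatives. HSPA1B differed between the lines by 0.66 ± 0.32 (adjusted p = 0.309), which does not show that its effects were alike. The other 8 ran from -0.38 (DNAJB1) to 0.54 (HSPA1A). At 48 h, 0 of the 10 effects differed between the lines, where limma called 0.00% of all genes and 3.30% passed unadjusted, 0 of them heat shock genes. The depletion of COPZ1 itself differed between the lines by -0.60 ± 0.32 at 72 h (adjusted p = 0.371), and its part in the difference of HSPB1 was not tested.

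Between 72 h and 48 h in TPC-1, 0 of the 10 effects differed by limma, against 2.04% of all genes, although 2 passed an unadjusted p under 0.05, against 15.6%. These were HSPA1B, with an effect higher by 1.08 ± 0.32 at 72 h (adjusted p = 0.088), and HSPB1, with an effect lower by 0.53 (SE 0.14, adjusted p = 0.0591). Both were called when the replicate number was a block (adjusted p = 0.0366 for HSPA1B and 0.0344 for HSPB1). The other 8 ran from -1.03 (HSPE1) to 0.66 (HSPA1A). In Nthy-ori 3-1, 0 of the 10 differed between the times, with 0.00% of all genes called, 0 of the 10 at the unadjusted threshold and 2.60% of all genes there.

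Lists of other chaperone genes were set beside the 10 in the same comparison, TPC-1 at 72 h. Of 44 other cytosolic chaperones and cochaperones, 2 rose, 0 fell and 42 did not pass, with a median of 0.07, against 7.03% of all genes higher and 7.42% lower. The 2 were HSPA1L, a relative of HSPA1A in the same gene cluster (0.53 ± 0.17, adjusted p = 0.043), and CCT5, a subunit of the cytosolic chaperonin (0.49 ± 0.16, adjusted p = 0.0477). The groups of HSPA1L overlapped, with 6.38, 5.76 and 5.86 for siCOPZ1, against 5.49, 5.14 and 5.78 for siNT. Those of CCT5 did not overlap. HSPA1L kept its call in 6 and CCT5 in 7 of 15 alternatives. The count of 2 was 8 with the replicate block, 0 with the 6 arrays of the comparison alone, and 0 to 2 when 1 array was left out. Of 23 chaperones and folding genes of the endoplasmic reticulum, 13 rose, 1 fell and 9 did not pass, with a median of 0.42, beside the same background. HSPA5, the central HSP70 of that compartment, had 12.63, 12.74 and 12.61 with siCOPZ1, against 11.85, 11.94 and 11.84 with siNT. These groups lay far apart, a rise of 0.79 ± 0.10 that was called in 15 of 15 alternatives. MANF, a secreted folding factor, rose by 1.05 ± 0.12 and DNAJC3, an HSP40 of the lumen, by 0.84 ± 0.10. The HSP90 of the lumen, HSP90B1, rose by 0.33 ± 0.10 (adjusted p = 0.0239), a call kept in 9 of 15 alternatives. It was lost without siCOPZ1 replicates 1 or 2 or siNT replicate 3, with fewer arrays in the fit and without all arrays numbered 1 (adjusted p up to 0.169). SERPINH1, the collagen chaperone HSP47, which HSF1 is known to drive, fell by 0.51 (SE 0.12, adjusted p = 0.0055), and its call was lost with the 6 arrays of the comparison alone (adjusted p = 0.0678) and without all arrays numbered 1 (0.0738). The total of 14 calls was 8 with the 6 arrays of the comparison alone, 7 with all arrays numbered 1 left out, and 10 to 13 when 1 array was left out.

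HSPD1 and HSPE1 were then set beside the other mitochondrial chaperones and proteases in TPC-1 at 72 h. Of these 15 genes, 6 rose, 0 fell and 9 did not pass, with a median of 0.23, against 7.03% of all genes higher. LONP1, the matrix protease, had 9.03, 9.21 and 9.16 with siCOPZ1, against 8.15, 7.95 and 7.97 with siNT. No sample overlapped, and the rise was 1.11 ± 0.13. HSPA9, the mitochondrial HSP70, rose by 0.74 ± 0.14 (adjusted p = 0.0014), and YME1L1, a protease of the inner membrane, by 0.53 ± 0.11 (adjusted p = 0.0022). All of LONP1, HSPA9 and YME1L1 were called in 15 of 15 alternatives, while the count of 6 was 3 at its lowest, with the 6 arrays of the comparison alone or the 12 arrays of the line. In the other 3 comparisons of siCOPZ1 with siNT, limma called 0 genes of any of these lists. At an unadjusted p under 0.05 in TPC-1 at 48 h, 7 of the 23 genes of the endoplasmic reticulum, 3 of the 44 cytosolic and 1 of the 15 mitochondrial genes passed, against 9.04% of all genes. In Nthy-ori 3-1 at 72 h, 1 gene of the endoplasmic reticulum, 1 cytosolic and 0 mitochondrial genes passed, against 3.08%, and at 48 h 2, 3 and 0 of the same lists, against 4.86%. HSPA5 differed by 0.33 ± 0.10 in TPC-1 at 48 h (adjusted p = 0.235), by -0.01 ± 0.10 in Nthy-ori 3-1 at 72 h and by 0.09 ± 0.10 in Nthy-ori 3-1 at 48 h.

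**Figure D3:**
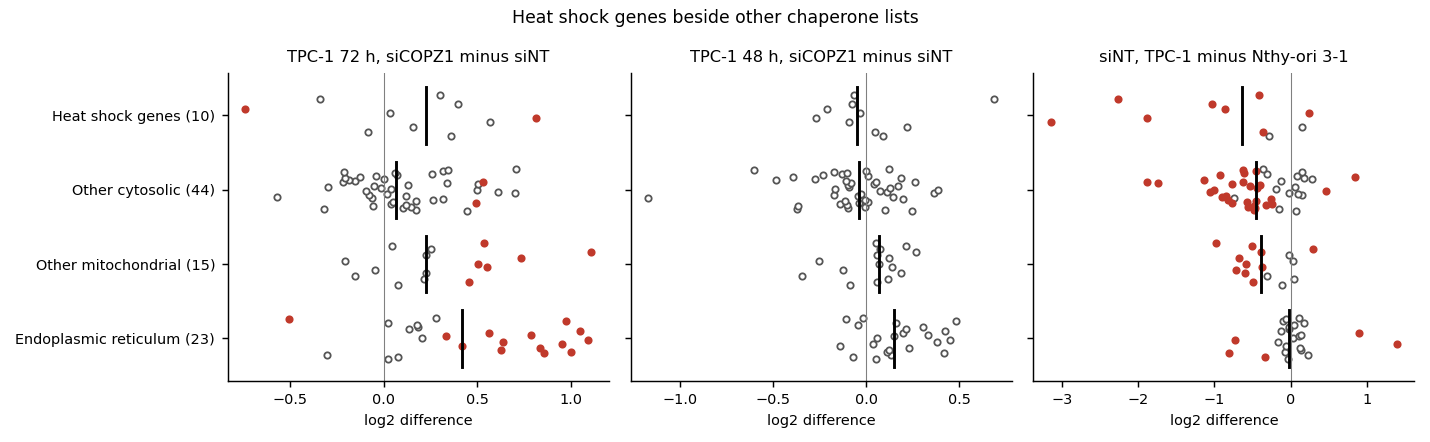
Log2 differences (x axis) of the 10 heat shock genes and of 3 lists of other chaperone genes, for siCOPZ1 minus siNT in TPC-1 at 72 h and 48 h and for TPC-1 minus Nthy-ori 3-1 with siNT. Each point is a gene, filled red where adjusted p was under 0.05, and the black lines are medians, which at 72 h were 0.23 for the heat shock genes, 0.07, 0.23 and 0.42 for the other cytosolic, other mitochondrial and endoplasmic reticulum lists.

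The lines differed in these genes with siNT alone. Over both times, TPC-1 had 7 of the 10 genes lower than Nthy-ori 3-1, 1 higher and 2 not called, against a background of 44.1% of all genes called, 20.0% higher and 24.1% lower. At an unadjusted p under 0.05, 8 of the 10 passed, against 49.6% of all genes. HSPA1A ran from 7.23 through a median of 7.79 to 8.50 in TPC-1, against 10.85, 10.96 and 11.06 in Nthy-ori 3-1. The 6 samples of each line were widely separated, and HSPA1A was 8.89-fold lower in TPC-1, a difference of -3.15 ± 0.23 (n = 6 each; adjusted p = 4.41e-10). HSPA1B had a lowest, median and highest level of 9.63, 10.20 and 10.87 in TPC-1, against 11.93, 12.10 and 12.30 in Nthy-ori 3-1, and was 3.70-fold lower. Beside these stress-inducible genes, the constitutive HSPA8 was the gene higher in TPC-1, by 0.24 ± 0.07 (adjusted p = 0.0122), with overlapping ranges of 13.05 to 13.41 in TPC-1 and 12.62 to 13.20 in Nthy-ori 3-1.

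The mitochondrial pair was also lower in TPC-1. HSPE1 had a lowest, median and highest level of 3.46, 5.12 and 5.86 in TPC-1, against 6.91, 7.01 and 7.46 in Nthy-ori 3-1, a difference of -2.27 ± 0.37 (adjusted p = 3.13e-05) with no overlap. HSPD1 was lower by -1.03 ± 0.17 on the log2 scale (adjusted p = 3.33e-05), with levels of 9.25, 9.76 and 11.01 in TPC-1, against 10.73, 10.92 and 11.34 in Nthy-ori 3-1. Its ranges overlapped through replicate 2 of TPC-1 at 48 h. HSPB1 had 11.70, 11.80 and 11.98 in TPC-1, against 12.56, 12.69 and 12.75 in Nthy-ori 3-1, a difference of -0.87 ± 0.07 without overlap. Of the 10 genes, 4 had ranges that did not overlap between the lines (HSPA1A, HSPA1B, HSPB1 and HSPE1), against 22.9% of all genes. HSPH1 (-0.41 ± 0.09) and DNAJB1 (-0.36 ± 0.10) were called lower with overlapping ranges. The calls of DNAJB1 (adjusted p = 0.0795) and HSPA8 (adjusted p = 0.0625) were lost when all arrays numbered 1 were left out. HSF1 (0.15 ± 0.15) and BAG3 (-0.28 ± 0.15, adjusted p = 0.125) were not called, and BAG3 was called with the replicate block (adjusted p = 0.0415).

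The wider cytosolic list followed in number. Of the 44 other cytosolic genes 27 were lower in TPC-1 and 2 higher, with a median of -0.46, against -0.005 over all genes and a background of 20.0% higher and 24.1% lower. These 29 calls were 19 without all arrays numbered 1. The 8 subunits of the cytosolic chaperonin, singled out after their values were seen, were all lower, by -0.82 to -0.24. HSP90AB1, the constitutive cytosolic HSP90, also singled out afterwards, differed by -0.77 ± 0.13, a call kept in 19 of 19 alternatives. The other cytosolic HSP90 gene, HSP90AA1, differed by -0.41. Its call was kept in 9 of 19 alternatives and in 3 of 12 fits that left out 1 array. Of the other mitochondrial genes 9 of 15 were lower and 1 higher, with a median of -0.39. Of the 23 genes of the endoplasmic reticulum 3 were lower and 2 higher, with a median of -0.02, and HSPA5 was not called (0.14 ± 0.07, adjusted p = 0.117).

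Time in culture with siNT brought few calls among the 10 genes. In TPC-1, 1 of the 10 changed between the times, against 2.10% of all genes called, with 0.301% higher and 1.80% lower. At an unadjusted p under 0.05, 2 of the 10 passed, against 17.4%. HSPD1 had 9.48, 9.61 and 9.25 at 72 h, against 9.91, 11.01 and 10.46 at 48 h. All 72 h samples lay below all 48 h samples, and the fall was -1.01 ± 0.24 (adjusted p = 0.0324). The call was lost without replicate 2 of 48 h (-0.74, adjusted p = 0.255), without replicate 3 of 48 h, without replicates 1 or 3 of 72 h, and with the 12 arrays of the line alone (adjusted p = 0.217). The times also did not overlap for HSPA1A (0.60 ± 0.32), HSPA8 (-0.19 ± 0.10) and HSPH1 (-0.33 ± 0.13, adjusted p = 0.196), so 4 of the 10 were apart, against 16.1% of all genes. In Nthy-ori 3-1, 0 of the 10 were called by limma, with 0.00% of all genes called, and 2 passed an unadjusted p under 0.05, against 8.31%. These were HSPH1, with 11.50, 11.87 and 11.50 at 72 h, against 12.10, 12.13 and 12.17 at 48 h, and HSPA8, with 12.95, 12.86 and 12.62 at 72 h, against 13.09, 13.07 and 13.20 at 48 h. Both were lower in all 72 h samples than in all 48 h samples, by -0.51 ± 0.13 for HSPH1 (adjusted p = 0.193) and -0.31 ± 0.10 for HSPA8 (adjusted p = 0.346). With HSPA1A (0.13 ± 0.32), 3 of the 10 had times that did not overlap, against 17.0% of all genes.

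**Figure D4:**
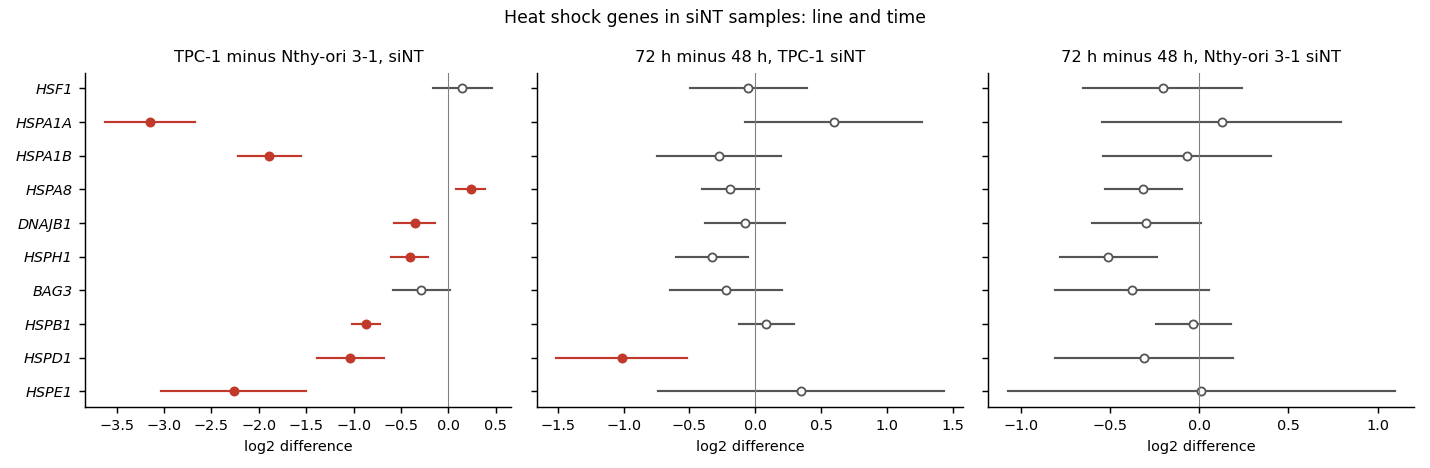
Log2 differences (x axis) of the heat shock genes in siNT samples, for TPC-1 minus Nthy-ori 3-1 and for 72 h minus 48 h in each line, with 95% confidence intervals. Filled red points passed an adjusted p under 0.05, with HSPA1A at -3.15 and HSPE1 at -2.27 between the lines and HSPD1 at -1.01 between the times in TPC-1, and open points did not.

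Across the 8 groups, the order of the means shows which groups stand apart. HSPB1 was highest in Nthy-ori 3-1 with siNT at 48 h, at a mean of 12.70, which overlapped the next 2 groups. It was lowest in TPC-1 with siCOPZ1 at 72 h, at 11.11, below TPC-1 with siCOPZ1 at 48 h, at 11.56, without overlap. HSPA1A ran from 11.04 in Nthy-ori 3-1 with siCOPZ1 at 72 h to 7.41 in TPC-1 with siCOPZ1 at 48 h, and the 4 groups of TPC-1 lay below the 4 of Nthy-ori 3-1. HSPH1 ran from 12.13 in Nthy-ori 3-1 with siNT at 48 h to 11.31 in TPC-1 with siNT at 72 h, and most of its neighbouring groups overlapped.

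Correlations among the 10 genes were mixed. After the mean of each line was removed, the 45 pairs among the 10 genes had a median Pearson's r of 0.12 over 24 arrays, and 31 were positive. HSPA8 and HSPH1 had an r of 0.74, HSPA1A and HSPA1B 0.66, HSPH1 and HSPD1 0.63, and HSPA8 and HSPD1 0.61. HSPA1B and HSPB1 had the lowest, -0.61. Some pairs differed between the lines, with 12 arrays each. HSPA8 and HSPD1 had an r of 0.90 in TPC-1 and 0.62 in Nthy-ori 3-1. BAG3 and HSPB1 had -0.26 in TPC-1 and 0.76 in Nthy-ori 3-1, against 0.06 over all arrays. HSPA8 and HSPH1 had 0.75 in both lines. These values describe arrays that share groups, lines and normalisation. The near-identical genes HSPA1A and HSPA1B may also share signal, and no p is given.

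**Figure D5:**
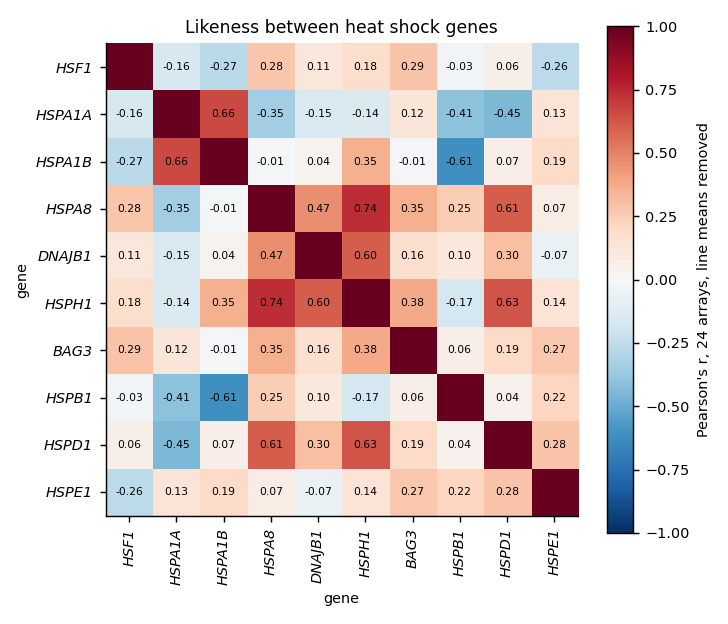
Pearson's r between each pair of heat shock genes over 24 arrays after the mean of each line was removed (colour and number; axes, genes). The block HSPA8, HSPH1 and HSPD1 holds r of 0.61 to 0.74, and HSPA1B with HSPB1 lies at -0.61.

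By the same measure, the genes most like each heat shock gene among all others were found. HSPB1 was most like PTGIS (r = 0.94), VCAN (0.93) and CNN2 (0.93). BAG3 was most like PTBP1 (0.90) and HSPD1 most like GPN1 (0.89) and CCT5 (0.88). HSPH1 was most like FERMT2 (0.88), HSPA8 most like SMS (0.86) and HSPA1B most like WRN (0.86). The nearest gene was MYRFL for HSPA1A (0.78) and FBLL1 for DNAJB1 (0.78). The best matches of HSF1 (SH3RF1, 0.70) and HSPE1 (DHX35, 0.72) were the weakest of the 10. All are the highest among the genes tested, over 24 arrays, and are given as descriptions.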

How the data were processed

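The deposited table holds log2 expression values of 18637 genes on 24 Affymetrix whole-transcript arrays, made by the authors with RMA per the submitters' processing notes (version not given in the sources used here). RMA makes the arrays' distributions alike and compresses dim genes, and the log2 values were used as deposited. Spreadsheet conversion had altered 28 symbols, and 5 symbols on more than 1 row were kept as the brighter row, which left 18632 genes. limma 3.58.1 in R 4.3.3 fitted 1 mean per group over all arrays, and 11 contrasts were tested two-sided. The genes and lists were chosen with earlier results of these data known. The rule names the 10 genes in every comparison (by counts alone in 2), from each list up to 3 calls per direction with the smallest adjusted p for siCOPZ1, and HSPA5 and HSP90B1. Same-numbered siCOPZ1 and siNT samples deviated together with correlations of 0.14 to 0.40 in TPC-1 at 48 h. In each other comparison 1 of 3 lay under 0.1, and the rest were 0.16 to 0.23. Differently numbered samples were not compared, so whether the numbers pair samples was not tested. The fit without a block is reported throughout, and the closing section gives the block. Alternatives were a replicate block, fewer arrays, median centring, a filter on dim genes, a variance trend, array weights, averaged rows and left-out arrays. Promoter windows came from RefSeq, searched with Python 3.11.15 and Biopython 1.88. Figures were drawn with matplotlib 3.10.9.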

Additional observations from a re-analysis of the deposited data

Results flagged for a closer look

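The response to siCOPZ1 at 72 h differed between the lines, by the limma test of the difference of effects, for 1 heat shock gene. Among the list genes named in the text it differed for 4, and 4.02% of all genes were called. All 4 had been named for a small adjusted p with siCOPZ1 in TPC-1 at 72 h. The line difference contains that comparison, so their calls were favoured in advance. The response was lower in TPC-1 than in Nthy-ori 3-1 for HSPB1 (-0.535, adjusted p = 0.037), a call kept in 7 of 19 alternatives. It was higher in TPC-1 for LONP1 (0.986, adjusted p = 0.00248), MANF (1.12, adjusted p = 0.000388), DNAJC3 (0.61, adjusted p = 0.0202) and HSPA5 (0.80, adjusted p = 0.00179). The response in TPC-1 was higher at 72 h than at 48 h for LONP1 (0.841, adjusted p = 0.0156) and DNAJC3 (0.607, adjusted p = 0.0341). The time difference called 2.04% of all genes, and it contains the comparison by which LONP1 and DNAJC3 were named.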

How the results depend on the processing

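Of 1451 values of the 10 genes under alternatives, 1359 kept their direction and their side of the threshold, 23 lost a call, 10 gained one and 59 changed sign, 0 of them called. HSPB1 at 72 h in TPC-1 kept its call in 15 of 15, from -0.83 to -0.68 (adjusted p 1.11e-06 to 0.0219). The count of calls in TPC-1 at 72 h was 1 with the 6 arrays of the comparison, 1 with the 12 arrays of the line, and 1 to 3 with 1 array left out. The count for the line difference at 72 h was 0 after median centring, 0 without all arrays numbered 1, and 0 to 1 with 1 array left out. The count for the time difference in TPC-1 was 2 with the replicate block, 1 with the dimmest genes left out, 1 with a variance trend, 1 with array weights, and 0 to 1 with 1 array left out. The count for time with siNT was 0 in TPC-1 with the 12 arrays of the line and 0 to 1 with 1 array left out, and 1 in Nthy-ori 3-1 with array weights (HSPH1, -0.54, adjusted p = 0.0287). Among results that were not called, signs turned with array weights for HSPE1 (0.0044 in TPC-1 at 72 h, -0.014 for time in Nthy-ori 3-1), BAG3 (-0.012 in TPC-1 and -0.013 in Nthy-ori 3-1, both at 48 h), HSF1 (-0.090 in Nthy-ori 3-1 at 48 h, 0.11 for time in TPC-1) and HSPA1A (0.027 in Nthy-ori 3-1 at 48 h). Without arrays numbered 1 they turned for HSPE1 (0.16 in TPC-1 at 72 h, -0.50 for time in TPC-1), HSPA1A (-0.013 in Nthy-ori 3-1 at 72 h), DNAJB1 (-0.018), HSF1 (-0.082) and HSPB1 (0.0042) in Nthy-ori 3-1 at 48 h, HSF1 (-0.014 for line, 0.072 for time in TPC-1) and HSPA1B (0.0038 for time in Nthy-ori 3-1). With 1 array left out, uncalled results that turned ranged as follows in TPC-1 at 48 h: BAG3 -0.0057 to 0.27, DNAJB1 -0.040 to 0.095, HSPA1A -0.23 to 0.014, HSPA8 -0.064 to 0.024, HSPD1 -0.35 to 0.19 and HSPH1 -0.14 to 0.045. In TPC-1 at 72 h they were DNAJB1 -0.19 to 0.00098 and HSPE1 -1.01 to 0.083. In Nthy-ori 3-1 at 48 h they were BAG3 -0.069 to 0.22, DNAJB1 -0.056 to 0.23, HSF1 -0.12 to 0.24, HSPA1A -0.055 to 0.060, HSPA1B -0.31 to 0.046 and HSPB1 -0.074 to 0.020. In Nthy-ori 3-1 at 72 h they were BAG3 -0.23 to 0.054, HSF1 -0.24 to 0.094, HSPA1A -0.018 to 0.12 and HSPD1 -0.084 to 0.044. For time with siNT they were DNAJB1 -0.16 to 0.030, HSF1 -0.23 to 0.090 and HSPE1 -0.26 to 1.01 in TPC-1, and HSPA1B -0.17 to 0.014, HSPB1 -0.081 to 0.018 and HSPE1 -0.16 to 0.11 in Nthy-ori 3-1. For the line difference at 72 h they were HSPA1A -0.028 to 1.06 and HSPE1 -0.42 to 0.67, and for the time difference in TPC-1 HSF1 -0.20 to 0.11. Among the 10 genes, the replicate block changed no call besides those of HSPA1B and HSPB1 for the time difference in TPC-1 and of BAG3 between the lines. In TPC-1 at 48 h, where each correlation of same-numbered samples lay above 0.1, the block left 0 calls (HSPB1, adjusted p = 0.415). The block moved the calls in the other cytosolic list in TPC-1 at 72 h to 8, against 2 without it. The alternatives of the list counts were added after the data were seen. The cause of these changes was not tested.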
